A study of Mus musculus with 8 samples.

Results

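The 7 genes described here, Bmp4, Bmpr1a, Smad6, Id1, Id2, Id3 and Msx2, belong to bone morphogenetic protein (BMP) signalling and were chosen by symbol. Each had 1 probe set that carried its symbol alone, among 22180 genes with such a probe set. They were measured in 4 groups of wild-type C57BL/6J mouse samples, with 2 Affymetrix Mouse Gene 2.1 arrays a group. FGF-ESC are cell lines kept on mouse embryonic fibroblasts (MEF) as feeders, in KODMEM with 20% KSR, a serum replacement, and the growth factor FGF2. EpiSC, the primed counterpart, were kept in that medium and on feeders too. ESC, the naive counterpart, were kept free of feeders with LIF, the 2i inhibitors and, by the sample labels, 15% fetal serum. ICM is the uncultured inner cell mass of embryonic day 3.5 blastocysts, isolated by immunosurgery. The labels derive every cultured line, EpiSC included, from day 3.5 embryos, and do not say whether the 2 arrays of a group were separate cultures or embryo pools, so p-values measure the spread between these arrays, which may be technical. Medium, feeders and cell type differed together between ESC and the other lines, and their parts cannot be told apart. Culture, cell type and the column kit used for RNA differed together between ICM and all the lines, and cannot be told apart either.

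BMP ligands bind a complex of type I and type II serine/threonine kinase receptors, which phosphorylate SMAD1, SMAD5 and SMAD9. These enter the nucleus with SMAD4 and raise transcription of the Id genes, whose products bind E proteins and keep them and their partners off DNA, and of inhibitors such as Smad6 that dampen the signal. In mouse embryonic stem cells BMP acting through Id genes is known to support self-renewal together with LIF, and in the embryo BMP4 from extraembryonic ectoderm patterns the epiblast.

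The values are the deposited log2 intensities, and array medians over 41345 probe sets were 4.16 to 4.28. The median of all values, 4.24, served as a mark for dim probe sets. A gene was tested if it lay above that mark on at least 2 arrays, which left 13597 genes. Of the 7 genes 6 were tested, and Smad6 was not. A gene passed a comparison at a limma adjusted p below 0.05 and a difference of at least 1 on the log2 scale. The arrays of a group differed by at least 1 for 395 tested genes in FGF-ESC, 20 in EpiSC, 0 in ESC and 80 in ICM. The group labels were set beside markers of the naive and primed states. Naive markers averaged 7.34 and 7.72 in FGF-ESC, 5.36 and 5.74 in EpiSC, 8.04 and 8.05 in ESC and 7.58 and 7.57 in ICM. Primed markers averaged 5.24 and 5.25 in FGF-ESC, 6.99 and 7.20 in EpiSC, 4.72 and 4.72 in ESC and 4.91 and 4.92 in ICM. Fibroblast genes stood out in FGF-ESC: 25 fibroblast markers averaged 8.76 on replicate 1 and 7.55 on replicate 2, against 5.27 and 5.55 in EpiSC, 4.69 and 4.68 in ESC and 4.63 and 4.77 in ICM. In FGF-ESC 25 of these markers lay above 4.24 on replicate 1 and 24 on replicate 2, where Fap was at 3.5. The counts were 19 and 22 in EpiSC, 14 and 13 in ESC and 13 and 17 in ICM. In such bulk samples fewer cells of a type and less RNA per cell cannot be told apart.

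Against EpiSC, 1 of the 7 genes passed (Bmp4, higher in FGF-ESC), where 7.28% of all tested genes did. Against ESC, 2 passed (Bmp4 and Id3, both higher in FGF-ESC), beside 6.21% of all tested genes. Against ICM, 1 passed (Bmp4, higher in FGF-ESC), beside 14.8%. Between EpiSC and ESC 0 passed, beside 7.36%. In limma 1 had an adjusted p below 0.05 (Bmpr1a), as did 2584 of all 13597 tested genes. The unadjusted p was below 0.05 for 2 (Bmpr1a and Id3). Between EpiSC and ICM 0 passed, beside 15.3%. An adjusted p below 0.05 was found for 2 (Id1 and Msx2), as for 5219 of all 13597 tested genes. The same 2 had an unadjusted p below 0.05. Msx2 had passed the filter on low values only through its ICM arrays, so its difference from ICM is no test result. Between ESC and ICM 2 passed (Id1 higher and Id3 lower in ESC), beside 11.4%. The median difference over the 7 genes was 0.12 for FGF-ESC minus EpiSC, 0.34 for FGF-ESC minus ESC, 0.10 for FGF-ESC minus ICM, 0.09 for EpiSC minus ESC, 0.09 for EpiSC minus ICM and -0.32 for ESC minus ICM. Over all tested genes, a set without Smad6, it lay between -0.06 and 0.02. The medians for FGF-ESC minus EpiSC and for EpiSC minus ESC are the values of Msx2, which was dim in these groups. Comparisons that share a group share its arrays and are not separate evidence.

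**Figure D1:**
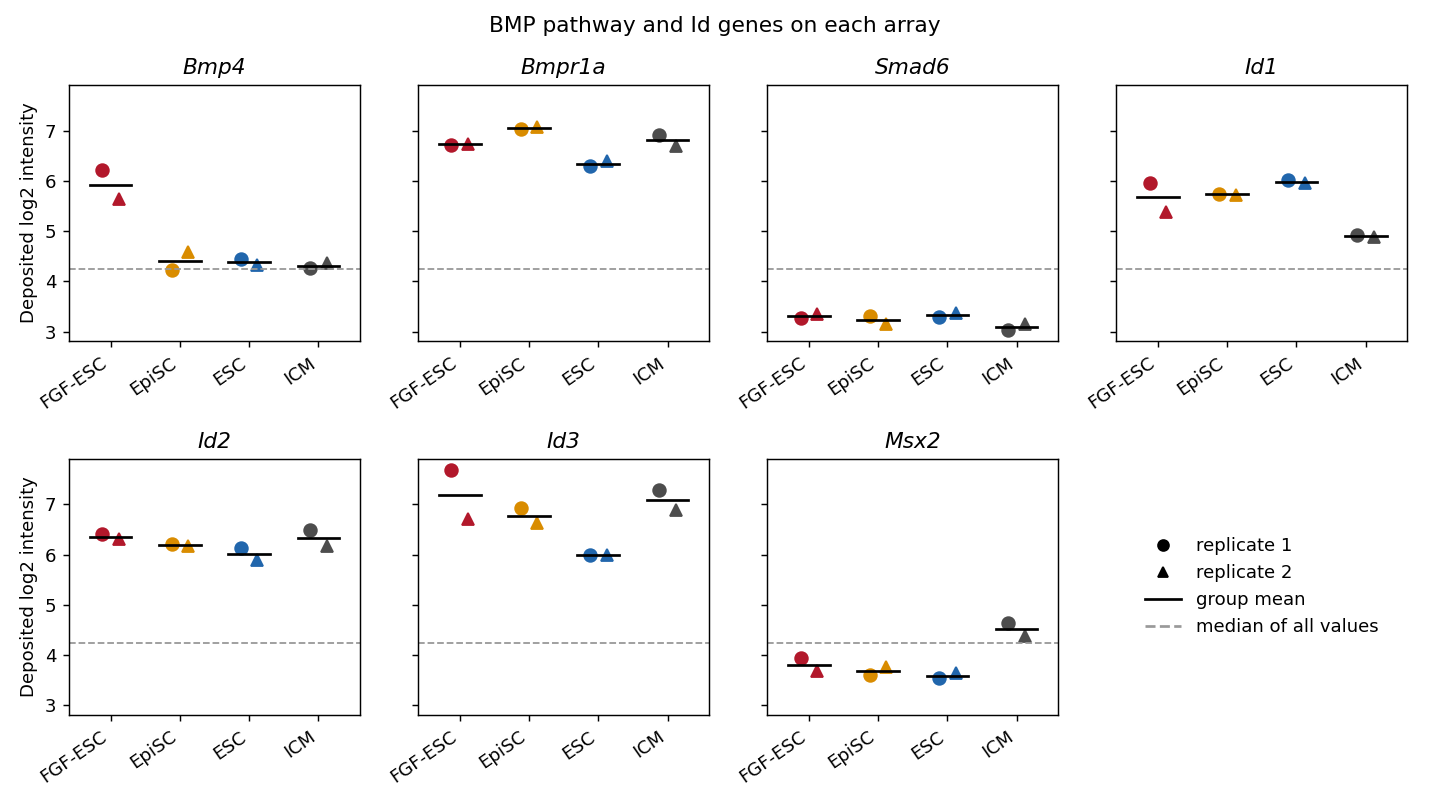
Deposited log2 intensity (vertical axis) of the 7 genes on each array of the 4 groups. Circles are replicate 1, triangles replicate 2, bars group means, and the dashed line is the median of all values, 4.24; Bmp4 stands above it in FGF-ESC and close to it elsewhere, Id1 is lowest in ICM and Id3 is lowest in ESC.

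Bmp4, the ligand, was higher in FGF-ESC than in each other group. Its probe set (17305709) read 6.22 and 5.63 in FGF-ESC, against 4.23 and 4.58 in EpiSC, 4.44 and 4.32 in ESC and 4.26 and 4.37 in ICM. Both FGF-ESC arrays lay above all 6 others, and the other 3 groups overlapped one another. Bmp4 was 2.87-fold higher in FGF-ESC than in EpiSC, a log2 difference of 1.52 ± 0.20 (SE, n = 2 arrays per group, limma adjusted p = 0.00169). Against ESC the difference was 1.54 ± 0.20 (adjusted p = 0.00266), and against ICM 1.61 ± 0.20 (adjusted p = 0.000508). All 3 calls held under each of the 14 alternatives tried, with differences from 1.23 to 1.81 against EpiSC (adjusted p from 0.00018 to 0.0274), 1.25 to 1.83 against ESC (0.000151 to 0.0387) and 1.32 to 1.90 against ICM (6.88e-05 to 0.00639). The 3 lower group means, 4.40 in EpiSC, 4.38 in ESC and 4.31 in ICM, sat near the 4.24 mark, so these folds depend on where the floor of the array lies. The remaining differences were 0.02 for EpiSC minus ESC (95% interval -0.44 to 0.49), 0.09 for EpiSC minus ICM (-0.38 to 0.56) and 0.07 for ESC minus ICM (-0.40 to 0.53).

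Bmp4 was highest on the arrays with the most fibroblast signal. FGF-ESC replicate 1 was highest in both Bmp4 (6.22) and the markers (8.76), and FGF-ESC replicate 2 came next in both (5.63 and 7.55). Without FGF-ESC replicate 1, Bmp4 was still 1.23 to 1.32 above the other groups, with fibroblast marker medians 1.80 above EpiSC, 2.29 above ESC and 2.47 above ICM. The part of feeder fibroblasts in the Bmp4 difference was not tested. Among 3433 other tested genes whose group means spanned at least 1, the 5 with patterns most like Bmp4 over the 8 arrays were Stc1, a secreted glycoprotein (Pearson r = 0.996), the inflammatory caspase Casp4 (0.995), Arhgdib (0.994), the matrix protein Mgp (0.993) and Col6a2, a collagen VI chain that is also on the fibroblast list (0.993). These r values are descriptions over 8 arrays in 4 groups, in which the 2 FGF-ESC arrays stand apart. Stc1 and Casp4 were above 4.24 only on the 2 FGF-ESC arrays and were tested only through them. Their likeness to Bmp4 was thus in part built into their selection.

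**Figure D2:**
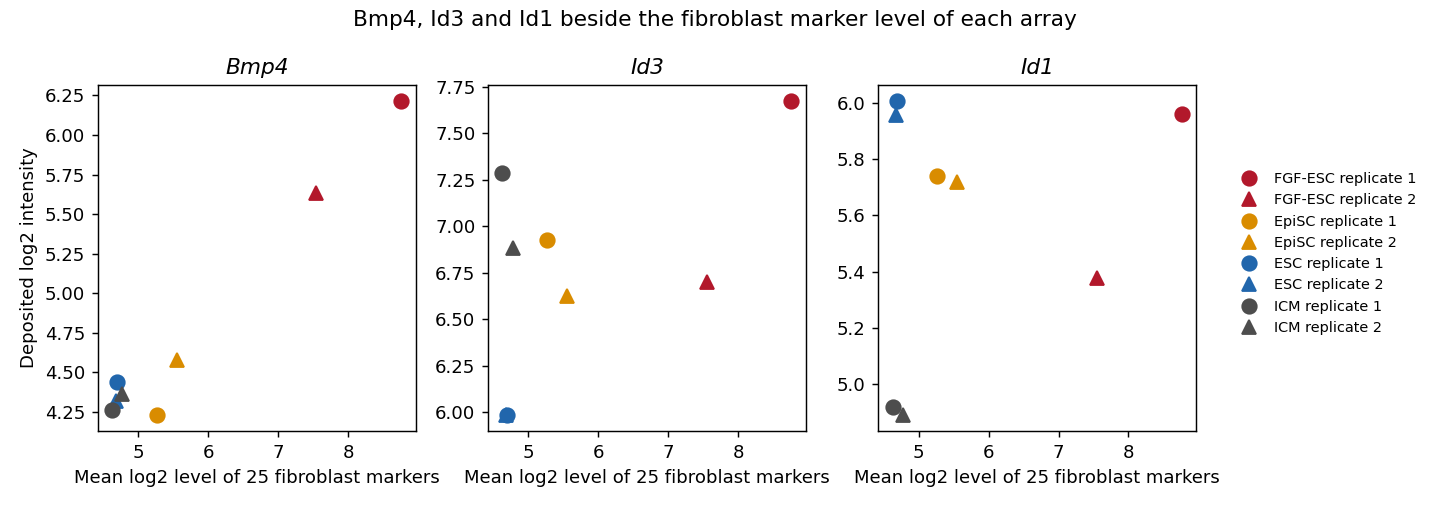
Deposited log2 intensity of Bmp4, Id3 and Id1 (vertical axes, each on its own scale) against the mean log2 level of 25 fibroblast markers (horizontal axes) for the 8 arrays. Bmp4 is highest on the 2 FGF-ESC arrays at the right; Id3 is highest on FGF-ESC replicate 1, and Id1 lies at 5.96 there and at 6.01 and 5.96 on the ESC arrays, whose fibroblast level is low.

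The promoter window of Bmp4 is shown with that of Id3 below because these were the 2 genes that passed between FGF-ESC and ESC. It holds the 250 bases before the start of Bmp4 on the minus strand, chr14:46390670-46390919 in build GRCm38.p6. The windows were taken from RefSeq, whose table had 6 of the 7 genes and lacked Id1, so Id1 was not searched. Capitals mark GTCT on either strand, the core of the SMAD-binding element, and GGCGCC, a GC-rich motif bound by SMAD1 and SMAD5, was searched as well.
Bmp4: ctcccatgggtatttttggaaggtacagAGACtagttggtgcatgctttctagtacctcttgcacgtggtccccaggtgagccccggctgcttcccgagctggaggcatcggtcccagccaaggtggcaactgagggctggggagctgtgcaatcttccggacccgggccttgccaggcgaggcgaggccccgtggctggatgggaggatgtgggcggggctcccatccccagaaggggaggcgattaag
The window has 1 GTCT core and 0 copies of GGCGCC. Among 32851 promoter windows of that length, 82.9% held GTCT and 9.59% held GGCGCC on either strand. GGCGCC followed by GTCT after 5 bases was in 0 windows of the 6 genes and in 0.07% of all windows.

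Other ligands gave no call. Of 11 BMP-type ligand genes with a probe set 6 were tested, and Bmp4 was the 1 that passed in any of the 6 comparisons. Bmp7, a ligand of the same family named after its values were seen, averaged 5.35 in FGF-ESC, 5.41 in EpiSC, 5.71 in ESC and 4.71 in ICM. For Bmp7, ESC minus ICM was 0.996, just under the fold minimum. Bmp2, the close relative of Bmp4, was also named after its values were seen. It read 5.97 and 4.15 in FGF-ESC, against 4.13 and 4.10 in EpiSC, 3.80 and 3.54 in ESC and 4.09 and 3.86 in ICM. Only FGF-ESC replicate 1, the array with the most fibroblast signal, was above 4.24, so Bmp2 was not tested.

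Bmpr1a, the type I receptor that binds BMP4, spanned 6.30 to 7.07 over the 8 arrays and passed in 0 of 6 comparisons. Its probe set (17305042) read 6.71 and 6.74 in FGF-ESC, against 7.03 and 7.07 in EpiSC, 6.30 and 6.39 in ESC and 6.92 and 6.70 in ICM. The EpiSC arrays were above all others and the ESC arrays below all others, while FGF-ESC and ICM overlapped. The difference of EpiSC minus ESC was 0.70 ± 0.12 (adjusted p = 0.00507), a 1.63-fold difference under the fold minimum. ESC minus ICM was -0.47 ± 0.12 (adjusted p = 0.0201), also under it. FGF-ESC lay between the other lines, at -0.32 ± 0.12 relative to EpiSC (adjusted p = 0.108) and 0.38 ± 0.12 relative to ESC (adjusted p = 0.0721). Against ICM it was at -0.08, with a 95% interval from -0.37 to 0.20.

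Rgmb, Bmpr2 and Eng, receptor-level genes of the wider list, passed in comparisons of FGF-ESC. Rgmb, a BMP co-receptor, averaged 6.68 in FGF-ESC, 5.5 in EpiSC, 4.95 in ESC and 4.99 in ICM. It was higher in FGF-ESC by 1.17 ± 0.29 than in EpiSC (adjusted p = 0.0255), 1.73 ± 0.29 than in ESC (adjusted p = 0.00776) and 1.69 ± 0.29 than in ICM (adjusted p = 0.00261). Against EpiSC the difference was 0.67 without FGF-ESC replicate 1 and did not pass. That call was also lost without either ESC array (adjusted p = 0.0554 each), EpiSC replicate 1 (0.0944) or EpiSC replicate 2 (0.143), and the call against ESC without ESC replicate 1 (0.0739) or ESC replicate 2 (0.069). Bmpr2, the type II receptor, averaged 7.41 in FGF-ESC, 7.15 in EpiSC, 6.25 in ESC and 7.53 in ICM. It was higher in FGF-ESC than in ESC by 1.16 ± 0.26 (adjusted p = 0.021), and lower in ESC than in ICM by -1.28 ± 0.26 (adjusted p = 0.00598). The difference between FGF-ESC and ESC was 0.71 without FGF-ESC replicate 1 and did not pass, nor did it pass without ESC replicate 1 (adjusted p = 0.134) or ESC replicate 2 (0.125). Eng, the co-receptor endoglin, averaged 5.66 in FGF-ESC, 4.31 in EpiSC, 5.30 in ESC and 4.60 in ICM. It was higher in FGF-ESC than in EpiSC by 1.35 ± 0.21 (adjusted p = 0.00366) and than in ICM by 1.06 ± 0.21 (adjusted p = 0.00549). The difference from ICM was 0.75 without FGF-ESC replicate 1 and under the fold minimum. Of 9 tested receptor genes, 2 rose and 0 fell in FGF-ESC against each of EpiSC, ESC and ICM, where 7.28%, 6.21% and 14.8% of all tested genes passed. Smad1, a transducer outside the rule for named genes and picked after its values were seen, averaged 6.19 in EpiSC and 4.70 in ICM, a difference of 1.49 ± 0.12 (adjusted p = 3.48e-05). It was the 1 call among the 2 transducers tested, in a comparison where 15.3% of all tested genes passed.

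Smad6, the inhibitory SMAD induced by BMP signalling, was dim on every array. Its probe set (17528125) read 3.27 and 3.36 in FGF-ESC, against 3.30 and 3.15 in EpiSC, 3.30 and 3.37 in ESC and 3.04 and 3.16 in ICM. All 8 values were under 4.24 and spanned 3.04 to 3.37, so it was not tested and no order is read from them. Smad7, the other inhibitory SMAD, averaged 7.06 in FGF-ESC, 7.58 in EpiSC, 6.72 in ESC and 5.96 in ICM. It was higher than in ICM by 1.09 ± 0.11 in FGF-ESC (adjusted p = 0.000193) and by 1.62 ± 0.11 in EpiSC (adjusted p = 1.84e-05).

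Of 11 tested inhibitors, 1 rose and 1 fell in FGF-ESC against EpiSC, 1 rose against ESC and 3 rose against ICM. Of all tested genes 7.28%, 6.21% and 14.8% passed in these comparisons. Grem1, the BMP antagonist gremlin, read 7.01 and 5.49 in FGF-ESC, against 4.02 and 3.64 in EpiSC, 3.62 and 3.77 in ESC and 3.63 and 3.59 in ICM. Both FGF-ESC arrays were above all 6 others, which lay under 4.24. Grem1 entered the tests only through its 2 FGF-ESC arrays, so that a difference of FGF-ESC was built into its selection, and it is 1 of the genes counted as risen in each comparison. The differences, 2.42 against EpiSC, 2.55 against ESC and 2.64 against ICM, are given as a description, and their sizes depend on where the floor of the array lies. Grem1 ran with Bmp4 and the fibroblast markers, highest on FGF-ESC replicate 1. The part of fibroblasts in it was not tested. Fst, which encodes follistatin, a binder of activins and some BMPs, was the 1 that fell against EpiSC. It averaged 5.38 in FGF-ESC and 6.68 in EpiSC, a difference of -1.30 ± 0.21 (adjusted p = 0.00423). It was higher in EpiSC than in ESC by 1.11 ± 0.21 (adjusted p = 0.00769), where ESC averaged 5.56. The first of these was -0.99 without FGF-ESC replicate 2, under the fold minimum, and the second was not called without ESC replicate 2 (adjusted p = 0.0719) or EpiSC replicate 2 (0.0674). Twsg1, a modulator of BMP and chordin, was higher in FGF-ESC than in ICM by 2.16 ± 0.21 (adjusted p = 0.000136), in EpiSC than in ICM by 1.87 ± 0.21 (adjusted p = 0.000231) and in ESC than in ICM by 1.55 ± 0.21 (adjusted p = 0.000868).

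Id1 and Id3 passed between ESC and ICM in opposite directions, and Id2 passed in 0 comparisons. Id1 (probe set 17377778), an inhibitor of basic helix-loop-helix factors, read 5.96 and 5.38 in FGF-ESC, against 5.74 and 5.72 in EpiSC, 6.01 and 5.96 in ESC and 4.92 and 4.89 in ICM. All cultured arrays were above both ICM arrays, and the FGF-ESC arrays spanned those of EpiSC. Id1 was 2.11-fold higher in ESC than in ICM, a log2 difference of 1.08 ± 0.18 (SE, n = 2 arrays per group, limma adjusted p = 0.00249), and passed under all 14 alternatives (1.05 to 1.10, adjusted p from 0.000125 to 0.0276). EpiSC minus ICM was 0.83 ± 0.18 (adjusted p = 0.00732) and FGF-ESC minus ICM 0.76 ± 0.18 (adjusted p = 0.0114), both under the fold minimum. FGF-ESC minus ICM was 0.47 without FGF-ESC replicate 1 (adjusted p = 0.0239), and 1.06, past the threshold, without FGF-ESC replicate 2. Its adjusted p was 0.0528 without ICM replicate 2 and 0.0598 in a fit of these groups alone. Among the cultured lines the differences were -0.06 for FGF-ESC minus EpiSC (95% interval -0.47 to 0.35), -0.31 for FGF-ESC minus ESC (-0.73 to 0.10) and -0.25 for EpiSC minus ESC (-0.67 to 0.16). FGF-ESC minus ESC was -0.61 without FGF-ESC replicate 1 (adjusted p = 0.0232) and -0.0213 without FGF-ESC replicate 2. FGF-ESC minus EpiSC was -0.35 without FGF-ESC replicate 1 and 0.23 without FGF-ESC replicate 2.

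The genes most like Id1 over the 8 arrays were the heparan sulphate proteoglycan Gpc4 (r = 0.983), the zinc finger genes Zfp369 (0.97) and Zscan10 (0.961), the death receptor gene Tnfrsf21 (0.96) and Nmnat2, an enzyme of NAD synthesis (0.958). Gpc4 read 6.22 and 4.88 in FGF-ESC, against 5.40 and 5.73 in EpiSC, 5.82 and 6.04 in ESC and 3.99 and 3.89 in ICM. Like Id1 it was lowest on both ICM arrays and differed between the FGF-ESC arrays. Gpc4 was picked for its likeness to Id1, so these shared traits were built into its selection.

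Id2 (probe set 17280310), also an early gene of the trophectoderm lineage, was nearly level. It read 6.40 and 6.30 in FGF-ESC, against 6.22 and 6.16 in EpiSC, 6.13 and 5.88 in ESC and 6.49 and 6.17 in ICM. Of its 6 differences 0 passed in limma, and 0 had an adjusted p below 0.05. The widest was FGF-ESC minus ESC, 0.34 ± 0.15 (adjusted p = 0.156), with a 95% interval from 0.0046 to 0.69 and an unadjusted p of 0.0476, the 1 of 6 below 0.05. Every interval for Id2 lay within 0.69 of 0 on the log2 scale.

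Id3 (probe set 17420016) was lowest in ESC. It read 7.68 and 6.70 in FGF-ESC, against 6.93 and 6.63 in EpiSC, 5.99 and 5.98 in ESC and 7.29 and 6.89 in ICM. Both ESC arrays were below all 6 others, and the other 3 groups overlapped. Id3 was 2.30-fold higher in FGF-ESC than in ESC, a log2 difference of 1.20 ± 0.29 (adjusted p = 0.0293). This call was not stable. Without FGF-ESC replicate 1 the difference was 0.71, under the fold minimum. Without ESC replicate 1 or 2, or EpiSC replicate 1 or 2, the difference stayed at 1.20 and the call was lost through the adjusted p alone. The same held in a limma fit of the 2 groups alone (1.20, adjusted p = 0.0888). Over all alternatives the adjusted p ran from 0.000539 to 0.158. In ESC against ICM Id3 was lower by -1.10 ± 0.29 (adjusted p = 0.0206). It did not pass without ESC replicate 1 (adjusted p = 0.102), ESC replicate 2 (0.1) or ICM replicate 1 (-0.90, 0.122), with a range from 0.00109 to 0.122. EpiSC minus ESC was 0.79 ± 0.29 (adjusted p = 0.101).

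FGF-ESC minus EpiSC was 0.41 for Id3 (95% interval -0.26 to 1.08) and FGF-ESC minus ICM 0.10 (-0.57 to 0.77). Without FGF-ESC replicate 1 these were -0.08 and -0.39. The fibroblast marker level of that array, 8.76, was the highest of the 8, and its part in the Id3 difference was not tested. The ICM arrays, at 7.29 and 6.89 for Id3, had fibroblast marker levels of 4.63 and 4.77, close to the 4.69 and 4.68 of ESC.

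The promoter window of Id3 holds the 250 bases before its start on the plus strand, chr4:136143572-136143821 in build GRCm38.p6, from RefSeq, with GTCT on either strand in capitals. That of Id2, chr12:25096093-25096342 on the minus strand, is set beside it as the Id gene that passed in 0 comparisons, with GGCGCC in capitals too.
Id3: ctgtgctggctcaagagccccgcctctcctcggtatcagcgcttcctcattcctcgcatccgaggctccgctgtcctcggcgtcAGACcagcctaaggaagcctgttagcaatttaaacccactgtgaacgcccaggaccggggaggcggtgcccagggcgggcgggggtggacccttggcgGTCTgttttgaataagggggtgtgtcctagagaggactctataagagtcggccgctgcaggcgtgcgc
Id2: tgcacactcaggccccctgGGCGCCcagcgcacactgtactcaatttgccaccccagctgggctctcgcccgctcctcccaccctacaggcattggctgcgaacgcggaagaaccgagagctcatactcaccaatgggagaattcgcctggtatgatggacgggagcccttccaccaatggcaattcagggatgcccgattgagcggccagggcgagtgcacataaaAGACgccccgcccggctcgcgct
The Id3 window has 2 GTCT cores, which begin 166 and 68 bases before the start, and 0 copies of GGCGCC. The Id2 window has 1 GTCT core, 23 bases before the start, and 1 GGCGCC at 231 bases.

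Msx2 (probe set 17292671), a homeobox gene induced by BMP, was dim in the cultured lines. It read 3.93 and 3.68 in FGF-ESC, against 3.6 and 3.76 in EpiSC, 3.54 and 3.65 in ESC and 4.65 and 4.38 in ICM. Both ICM arrays were above all 6 others. It entered the tests only through these 2 arrays, the only ones above 4.24, so that a difference from ICM was built into its selection. As a description, the differences were -0.71 for FGF-ESC minus ICM, -0.83 for EpiSC minus ICM and -0.92 for ESC minus ICM, all under the fold minimum and all from a dim group. ESC minus ICM was -1.05 without ICM replicate 2. On the ICM arrays 12 trophectoderm markers averaged 5.73 and 5.62, against 4.62 and 4.68 in FGF-ESC, 4.70 and 4.86 in EpiSC and 4.79 and 4.76 in ESC. Of these 12, 10 were above 4.24 on both ICM arrays, against 8 on both arrays of FGF-ESC, 7 of EpiSC and 6 of ESC. In ICM Cdx2 read 5.76 and 5.02, while Elf5 read 3.04 and 3.48. Other members were not highest in ICM: Tead4 averaged 7.42 there and 7.87 in ESC, and Krt19 3.97 there and 4.86 in EpiSC. Another 12 markers, of primitive endoderm, averaged 6.17 and 6.29 in ICM, against 5.76 and 5.44 in FGF-ESC, 5.09 and 5.16 in EpiSC and 4.86 and 4.94 in ESC. Members of this list differed: Gata6 averaged 8.02 in ICM and 3.62 in FGF-ESC, and Sparc 7.36 in ICM and 9.36 in FGF-ESC. Pdgfra, at 7.94 in ICM and 7.43 in FGF-ESC, is also on the fibroblast list. The part of these cell types in the Msx2, Id1 and Id3 values of ICM was not tested.

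**Figure D3:**
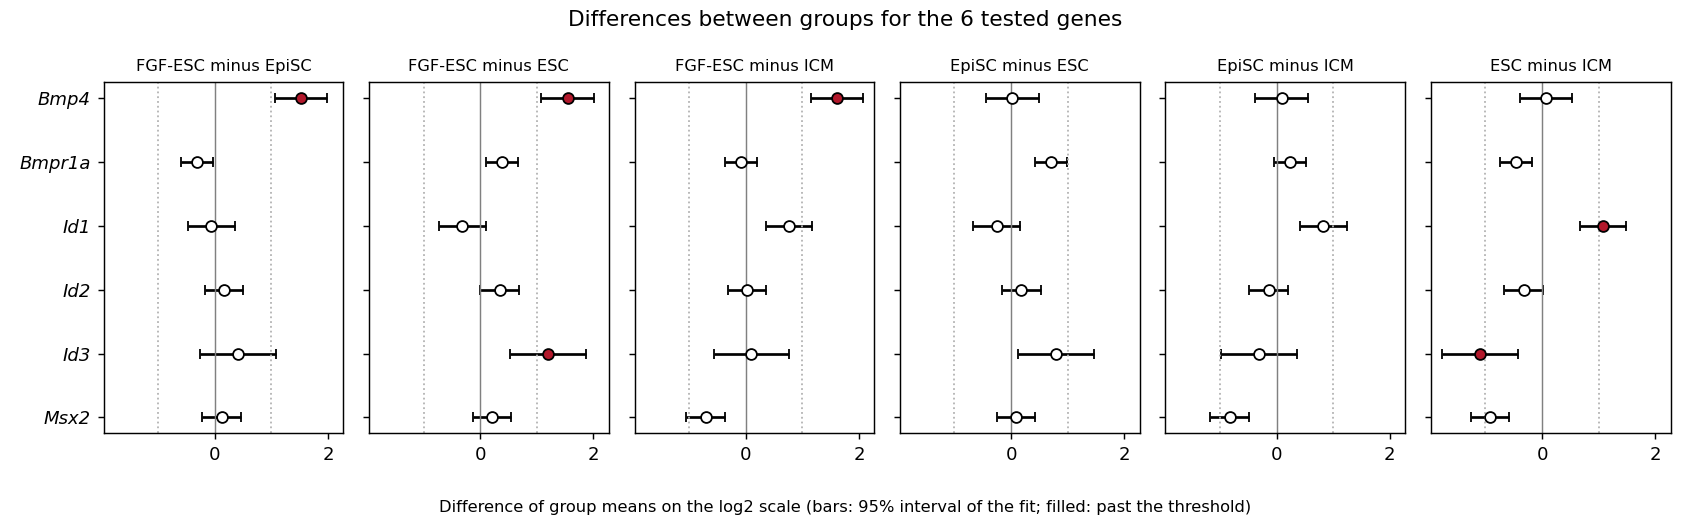
Differences of group means on the log2 scale (horizontal axes) for the 6 tested genes (vertical axis) in the 6 comparisons. Points are estimates with 95% intervals from the limma fit, filled where the gene passed, and dotted lines mark -1 and 1; Bmp4 is filled in all 3 comparisons of FGF-ESC, Id3 in FGF-ESC minus ESC, and Id1 and Id3, on opposite sides of 0, in ESC minus ICM.

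Beyond the Id genes and Msx2, Tbx3, a T-box factor that is on both the BMP target list and the naive marker list, was lowest in EpiSC. It read 7.32 and 7.33 in FGF-ESC, against 4.09 and 4.39 in EpiSC, 8.50 and 8.39 in ESC and 8.63 and 8.83 in ICM. It was higher in FGF-ESC than in EpiSC by 3.08 ± 0.14 (adjusted p = 2.05e-05) and lower than in ESC by -1.12 ± 0.14 (adjusted p = 0.00215). EpiSC minus ESC was -4.20 ± 0.14 (adjusted p = 4.16e-06). Among the E proteins that ID proteins bind, Tcf12 averaged 7.64 in EpiSC and 6.48 in ESC, a difference of 1.16 ± 0.17 (adjusted p = 0.00216). Tcf4 averaged 7.07 in FGF-ESC and 5.56 in ICM, a difference of 1.5 ± 0.27 (adjusted p = 0.00327).

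Of 49 further genes on the lists of ligands, receptors, transducers, inhibitors, targets and ID partners, 44 had a probe set of their own and 32 were tested. In FGF-ESC, 4 rose and 1 fell against EpiSC (15.6% of the 32, beside 7.28% of all tested genes), with a median of -0.05. Against ESC 3 rose and 1 fell (12.5%, beside 6.21%), with a median of 0.08, and against ICM 6 rose and 1 fell (21.9%, beside 14.8%), with a median of 0.33. Without FGF-ESC replicate 1 the numbers that rose were 3, 2 and 5. Without FGF-ESC replicate 2 they were 5, 6 and 10, and 0 fell against EpiSC. Against ESC 0 rose without ESC replicate 1 or ESC replicate 2. In EpiSC 2 rose and 1 fell against ESC (9.38%, beside 7.36%), with a median of 0.22 (1 rose and 2 fell without ESC replicate 2 or EpiSC replicate 2), and 6 rose and 1 fell against ICM (21.9%, beside 15.3%), with a median of 0.25. In ESC 1 rose and 1 fell against ICM (6.25%, beside 11.4%), with a median of 0.10, and 2 rose without ESC replicate 1 or ICM replicate 2 and 3 without ICM replicate 1. The fibroblast list beside them had 20, 21 and 22 of 24 tested genes higher in FGF-ESC than in EpiSC, ESC and ICM, with medians of 2.79, 3.19 and 3.25. Grem1 and Bmper in the BMP lists and Col5a2, a collagen chain, in the fibroblast list were above 4.24 only on FGF-ESC arrays. Nbl1 in the BMP lists and Lum, Postn, Mmp3 and Prrx1 in the fibroblast list were above it there and on 1 other array. All of these were tested only because of their level in FGF-ESC. The counts for FGF-ESC are therefore in part built into the selection. Bmper and Nbl1 are named for this reason alone.

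**Figure D4:**
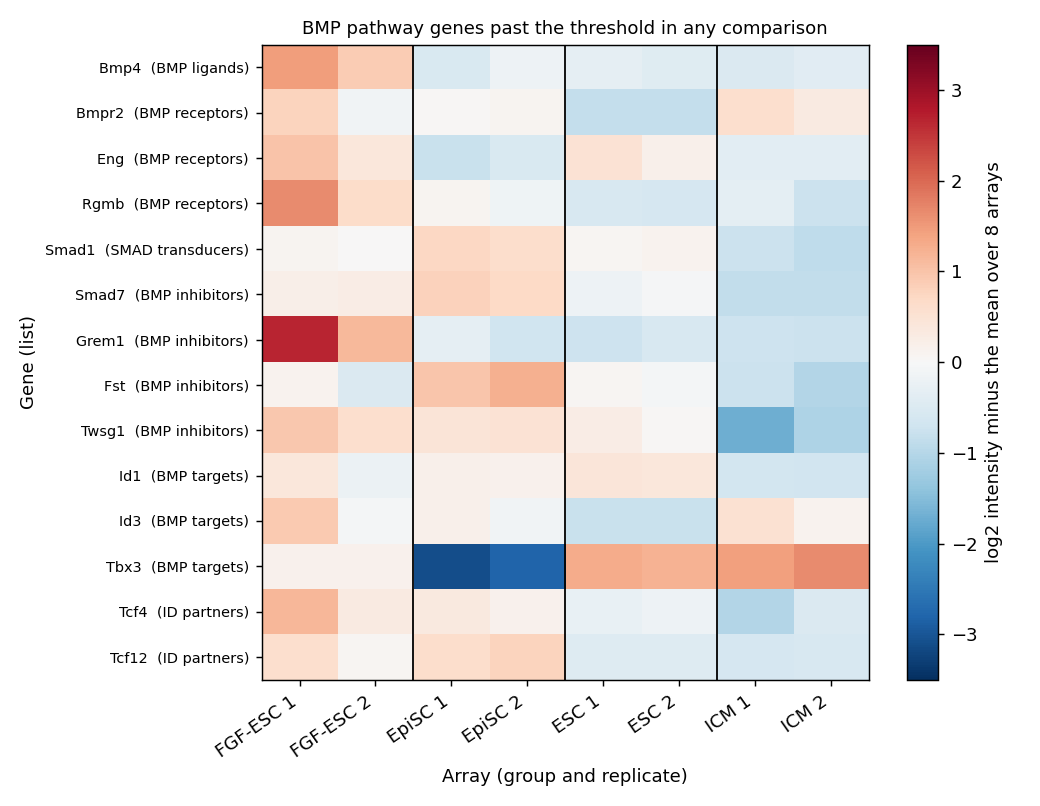
Log2 intensity minus the mean over 8 arrays (colour scale from -3.5 to 3.5) of the 14 genes of the BMP lists that passed in any comparison (rows, with the list in brackets) on each array (columns). Bmp4, Rgmb and Grem1 are highest on FGF-ESC replicate 1, Id3 and Bmpr2 are lowest in ESC, Fst is highest in EpiSC, and Tbx3 is lowest in EpiSC.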

How the data were processed

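RNA of 8 samples was hybridised to Affymetrix Mouse Gene 2.1 arrays after amplification and biotin labelling with NuGEN kits, per the labels. A different column kit was used for ICM RNA than for the cultured lines. The authors deposited log2 intensities, 1 per probe set and array, and the submitters' processing notes name 1 program, Affymetrix Expression Console 1.3.1. That the scale is log2 was read from the range of the values; details of background correction and summarisation were not given in the sources used here. No further normalization was applied.

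Genes were named from the 23521 of 41345 probe sets with 1 symbol in the platform annotation (1814 had several and 16010 none). The probe set with the highest mean stood for a gene. All 8 arrays entered 1 fit with a mean per group (limma 3.58.1, run under R 4.3.3: lmFit, contrasts.fit and eBayes), with 4 residual degrees of freedom and Benjamini-Hochberg adjustment over 13597 genes within each of 6 comparisons. Every SE and adjusted p comes from this fit, whose spread is pooled over the groups and can understate that of FGF-ESC (SD 0.279, against 0.151 in EpiSC, 0.124 in ESC and 0.208 in ICM). The number of arrays limits the precision. The code was tested on simulated data.

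The members and gene lists were chosen with earlier results of these data known. All 7 members are named. Genes of the BMP lists are named where they passed in a comparison of FGF-ESC or between EpiSC and ESC, and otherwise only where stated. Likeness is Pearson's r over 8 arrays. Motifs were searched on both strands of RefSeq promoter windows. Alternatives were the mean of a gene's probe sets, no low-value filter, quantile normalization, an intensity trend, fits of 2 groups, a replicate block, no fold minimum and leaving out each array. Counts over the BMP lists without each array were added after seeing the data.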

Additional observations from a re-analysis of the deposited data

How the results depend on the processing

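Of 504 repeats of a member's difference, 481 kept their direction and side of the threshold, 9 lost a call, 2 gained a call and 12 changed sign. All sign changes came from leaving out 1 array. With 1 probe set per member, only quantile normalization or leaving out an array of a compared group could move a difference. The other settings could change only its adjusted p, so most repeats had their direction fixed in advance. Most of the differences also had no call to lose, so the 481 are no measure of robustness. By array left out, FGF-ESC minus EpiSC ran from -0.35 to 0.23 for Id1, -0.0794 to 0.90 for Id3 and -0.0063 to 0.25 for Msx2. FGF-ESC minus ICM ran from -0.14 to 0.18 for Id2, -0.39 to 0.59 for Id3 and -0.20 to 0.0293 for Bmpr1a. EpiSC minus ESC ran from -0.15 to 0.20 for Bmp4, and EpiSC minus ICM from -0.0851 to 0.27 for Bmp4 and -0.30 to 0.0175 for Id2. None of these differences passed with all arrays. The number of members that passed by array left out was 1 to 2 in FGF-ESC minus ESC, 1 to 2 in FGF-ESC minus ICM and 1 to 3 in ESC minus ICM. The number of all genes that passed in FGF-ESC minus ESC was 374 to 1287, against 844 with all arrays, and 526 with 1 member in a fit of these groups alone. A group left with 1 array is assumed to vary like the others, and the genes tested were kept. The call gained in ESC minus ICM, without ICM replicate 2, was that of Msx2. Because Msx2 was tested only through its ICM level, its repeats against ICM among the 504 are no test result. With no fold minimum, 2692 genes passed in FGF-ESC minus EpiSC, 2087 in FGF-ESC minus ESC, 4984 in FGF-ESC minus ICM, 2584 in EpiSC minus ESC, 5219 in EpiSC minus ICM and 4488 in ESC minus ICM. Members that passed then numbered 3 in FGF-ESC minus ICM, 1 in EpiSC minus ESC, 2 in EpiSC minus ICM and 4 in ESC minus ICM, with Msx2, which was tested only because of its ICM level, among them in each comparison with ICM. The causes of these changes were not tested, apart from the wider rule itself. Replicate numbers are not stated to pair arrays; with the replicate block 828 genes and 2 members passed in FGF-ESC minus ESC, and no member changed its call. For Smad6, and for Msx2, Bmp4 and Grem1 outside the group where each was highest, signal near the 4.24 mark limits what can be read.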
